A study of Mus musculus with 23 samples.

Results

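The genes described here encode the repressor arm of the circadian clock: the period genes Per1, Per2 and Per3, the cryptochrome genes Cry1 and Cry2, the basic helix-loop-helix repressor genes Bhlhe40 and Bhlhe41, and Ciart, which the array's design names Gm129. They were chosen by gene name, 8 genes of the 34791 named on the array, and all 8 were among the 28224 genes kept for testing. Their messenger RNA was measured in circumvallate papilla, the taste bud-bearing papilla at the back of the tongue, in 23 samples from male C57Bl6/j mice. The 8 DIO-R samples are read here as DIO mice held to 60% of the energy they would eat freely, since the labels do not spell the name out. The 8 DIO samples came from mice with free access to an obesogenic diet with much saturated fat, and the 7 Lean samples from mice with free access to standard chow. Lingual epithelium was peeled from the connective tissue with enzymes in every group before the papilla was dissected. The labels give no age, no length of diet, no hour of feeding or of tissue collection, and no statement that each sample is a separate mouse, so the p-values measure only the spread between these samples, which may in part be technical.

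The mammalian clock is a feedback loop in which the activators CLOCK and BMAL1 (the product of Arntl) bind E-box sequences and switch on the Per, Cry, Bhlhe40, Bhlhe41 and Ciart genes. PER and CRY proteins form a complex that returns to the nucleus and blocks CLOCK and BMAL1, BHLHE40 and BHLHE41 compete for the same E-boxes, and the CIART protein, also called CHRONO, binds BMAL1 and represses it. In peripheral tissues of mice the levels of these transcripts change over the day, and meal timing is a known cue that sets that rhythm.

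The upstream sequences of several of these genes are shown because CLOCK and BMAL1, and the D-box factors DBP, TEF and HLF, are known to act through short motifs near the start of clock genes. RefSeq windows of assembly GRCm38.p6 covering the 250 bases before a gene's start were matched for 6 of the 8 genes; Per2 and Bhlhe40 are named only. Both strands were searched for the E-box CACGTG, the E-prime box CACGTT with its reverse complement AACGTG, the D-box TTATGTAA with its reverse complement TTACATAA, the ROR element TAGGTCA and the cAMP element TGACGTCA. Capitals mark the matches, no match overlapped another, and each sequence reads 5′ to 3′ on the minus strand, which is the coding strand of these 4 genes. The windows of the 2 genes that rose in DIO-R against Lean papillae and have one in the table, Ciart (chr3:95882229-95882478) and Cry2 (chr2:92434070-92434319), are followed by those of 2 that did not pass the test, Cry1 (chr10:85185055-85185304) and Per3 (chr4:151044666-151044915).
Ciart: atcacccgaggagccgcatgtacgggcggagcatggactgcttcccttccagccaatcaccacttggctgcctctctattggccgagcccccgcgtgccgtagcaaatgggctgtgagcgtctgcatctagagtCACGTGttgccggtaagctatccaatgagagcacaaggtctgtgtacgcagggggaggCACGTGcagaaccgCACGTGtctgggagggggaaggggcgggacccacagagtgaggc
Cry2: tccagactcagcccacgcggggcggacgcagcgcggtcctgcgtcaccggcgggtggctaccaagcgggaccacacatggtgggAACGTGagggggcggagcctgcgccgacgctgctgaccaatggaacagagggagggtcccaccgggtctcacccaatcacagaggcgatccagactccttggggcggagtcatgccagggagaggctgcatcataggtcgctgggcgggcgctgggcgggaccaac
Cry1: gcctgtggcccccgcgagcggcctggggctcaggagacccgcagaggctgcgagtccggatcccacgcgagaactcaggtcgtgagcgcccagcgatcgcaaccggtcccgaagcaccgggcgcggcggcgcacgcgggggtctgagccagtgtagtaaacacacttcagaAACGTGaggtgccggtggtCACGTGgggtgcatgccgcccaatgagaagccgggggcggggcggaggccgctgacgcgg
Per3: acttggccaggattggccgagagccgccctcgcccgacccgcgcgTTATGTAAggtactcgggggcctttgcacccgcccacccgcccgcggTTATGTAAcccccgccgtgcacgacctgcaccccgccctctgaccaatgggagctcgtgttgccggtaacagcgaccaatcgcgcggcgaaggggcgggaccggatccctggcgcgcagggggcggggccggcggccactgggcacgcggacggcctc

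The Ciart window held 3 E-boxes, ending 111, 53 and 39 bases before the start. The Cry2 window held 1 E-prime box, the Cry1 window 1 E-box and 1 E-prime box, and the Per3 window 2 D-boxes. Of the other matched genes, Per1 had 1 E-box in the first of its 2 windows and no match in the second, and Bhlhe41 had 1 E-box. No ROR element or cAMP element was matched in any of these windows. Among the 32851 mouse promoter windows of the same length, 6.02% held an E-box, 3.85% an E-prime box, 0.819% a D-box, 2.23% a ROR element and 1.55% a cAMP element. A match is a run of letters and not a measured binding site.

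Levels are log2 spot intensities, corrected for background and expressed relative to the array's own 75th percentile, so that 0 is that percentile and a difference of 1 is a doubling. A gene is represented by its brightest probe, and levels are compared between groups for a probe, never between probes. Per array, 66.9% to 78.43% of probes exceeded background clearly, no spot was saturated, and correlations between arrays over genes lay between 0.96 and 0.991. Of the marker genes of the labelled tissue, 10 of 10 for type II taste cells, 9 of 9 for type III and 16 of 16 for basal and differentiated keratinocytes were kept. For von Ebner glands 3 of the 5 on the array were kept. Since 28224 of the 34791 genes on the array were kept, and all 10 skeletal muscle and all 8 adipocyte markers too, these counts do not set the tissue apart. DIO 1 and DIO 6 stood apart with the lowest type II taste cell scores, at -1.24 and -0.68 against a range of -0.33 to 0.34 over the other 21 samples, and the differences of the clock repressors and of their paralogue pairs were also computed without them. Other arrays stood apart in other scores. DIO-R 5 and DIO 10 had the lowest von Ebner gland scores, at -2.74 and -2.36. DIO-R 5 was also lowest for skeletal muscle (-2.09) and adipocytes (-2.29). These 2 arrays were left out only in single omissions. Of the clock repressors, 7 were well above background on every array, and Ciart was so on 8 of 8 DIO-R, 7 of 8 DIO and 3 of 7 Lean arrays.

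In DIO-R against Lean papillae, 4 of the 8 clock repressors were higher at an adjusted p under 0.05 and none was lower (limma with Benjamini-Hochberg adjustment over 28224 genes). Of all genes, 0.0531% were called higher and 0.128% in either direction in that comparison. Ciart was 5.19-fold higher, Per2 2.71-fold, Bhlhe40 1.66-fold and Cry2 1.35-fold, and Per3, Per1, Cry1 and Bhlhe41 did not pass. The fold of Ciart depends on the processing, and only 3 of 7 Lean arrays held its probe well above background. Its log2 difference was 2.38 as reported and 1.25 in the authors' deposited values, whose normalization is not given. It was 0.77 after the normexp correction, which adds an offset of 50 to every intensity. Such an offset shrinks the log2 differences of dim probes, and the Ciart probe averaged a log2 intensity of 4.65. The ranges of the groups did not overlap for 3 of the 8, Ciart, Cry2 and Bhlhe40, where 0.188% of all genes lay wholly higher in DIO-R and 0.305% were apart in either direction. The difference was above 0 for 7 of the 8 and the median was 0.58, beside a median of -0.02 over all genes, of which 44.5% were above 0. Because the samples are bulk tissue, a change in the number of cells that carry a transcript and a change in the transcript per cell cannot be told apart.

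**Figure D1:**
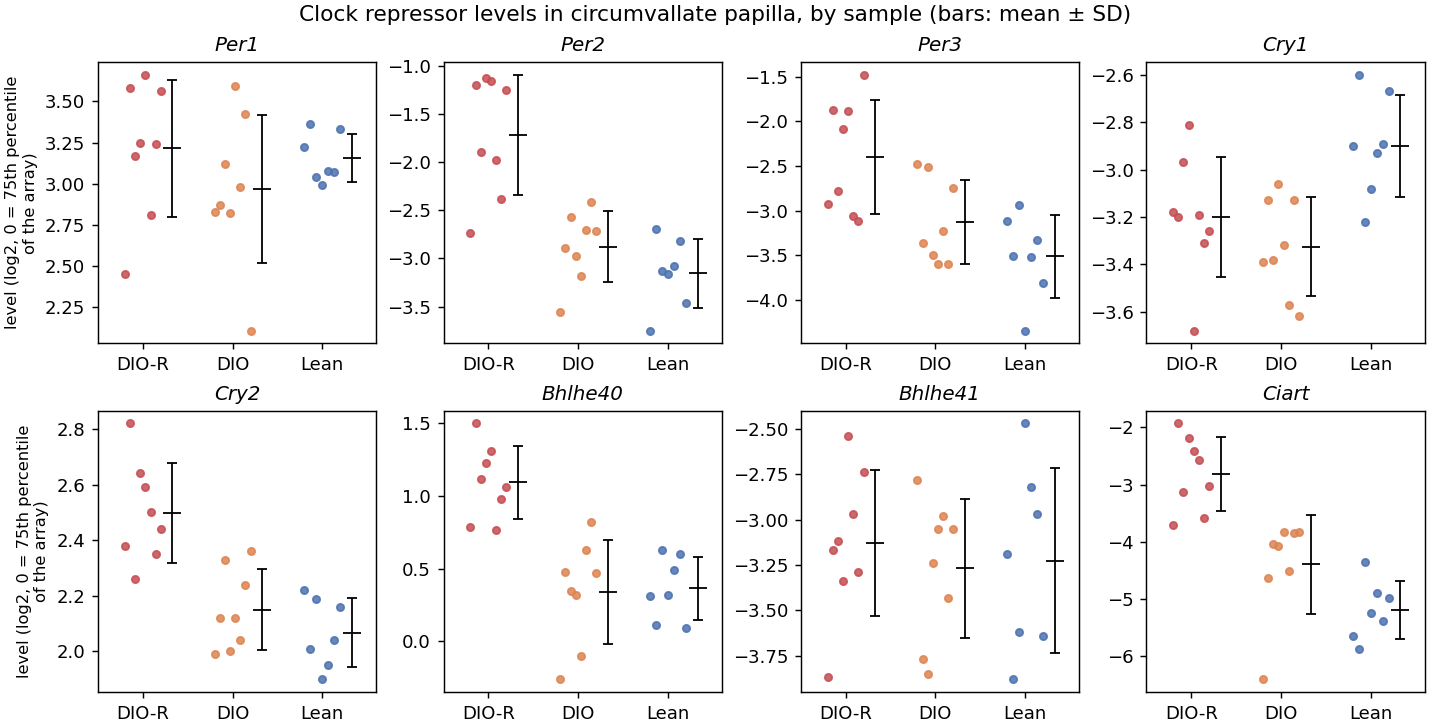
Level of each clock repressor in every sample (vertical axis, log2 with 0 at the 75th percentile of the array; each panel has its own axis), with DIO-R (n = 8), DIO (n = 8) and Lean (n = 7) from left to right and bars for mean ± SD. The DIO-R points lie wholly above the Lean points for Cry2, Bhlhe40 and Ciart, and wholly above the DIO points for Ciart.

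Per1 encodes the period protein known for its fast induction by glucocorticoids and by cAMP signalling. Its level lay between 2.45 and 3.66 (median 3.25) in DIO-R, between 2.11 and 3.59 (median 2.92) in DIO and between 2.99 and 3.36 (median 3.08) in Lean papillae, read by the probe at chr11:68923364-68923423 (mm9). The groups overlapped, and their SDs were 0.41 in DIO-R, 0.45 in DIO and 0.15 in Lean. The difference was 0.25 ± 0.18 (SE; 95% interval -0.13 to 0.62) in DIO-R against DIO and 0.06 ± 0.19 (-0.33 to 0.45) in DIO-R against Lean, with limma adjusted p values of 0.631 and 0.938. A dimmer probe, at chr11:68919895-68919954 and designed to another transcript record, gave -0.30 ± 0.33 and -0.20 ± 0.35 for those comparisons, neither past the threshold. The mean of both probes turned the direction, to -0.03 against DIO and -0.07 against Lean.

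Per2 encodes the period protein whose loss disrupts the mouse rhythm most among the 3. Its level lay between -2.74 and -1.13 (median -1.57) in DIO-R, between -3.56 and -2.41 (median -2.81) in DIO and between -3.75 and -2.69 (median -3.13) in Lean papillae (probe at chr1:93313046-93313105, mm9). Of the 8 DIO-R samples, 7 were above every Lean sample and 7 above every DIO sample, and DIO-R 3 at -2.74 was the one that overlapped. Against Lean the level was 2.71-fold higher, a log2 difference of 1.44 ± 0.24 (adjusted p = 0.00626 by limma, and 0.0516 when only the DIO-R and Lean arrays were fitted). Against DIO it was 2.23-fold higher, 1.16 ± 0.23, with an adjusted p of 0.0547 that missed the threshold. It passed when DIO-R 3 or DIO-R 7 was left out (differences of 1.06 to 1.30 and a lowest adjusted p of 0.0079 over all single omissions), and in 5 of 16 other settings. The 2 lowest DIO-R samples for Per2 were DIO-R 3 and DIO-R 7, and the same 2 were lowest for Ciart.

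Per3 encodes the period protein that mice can lose with little effect on behavioural rhythm. It lay between -3.12 and -1.48 (median -2.44) in DIO-R, between -3.59 and -2.48 (median -3.29) in DIO and between -4.34 and -2.94 (median -3.51) in Lean papillae (probe at chr4:150379256-150379315, mm9). All 8 DIO-R samples were above the Lean mean and 6 were above every Lean sample, but the ranges overlapped. The difference was 1.11 ± 0.27 against Lean (adjusted p = 0.124) and 0.72 ± 0.26 against DIO (adjusted p = 0.48), neither past the threshold in limma.

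Cry1 encodes the cryptochrome that represses CLOCK and BMAL1 most strongly. Its level lay between -3.68 and -2.81 (median -3.20) in DIO-R, between -3.62 and -3.06 (median -3.35) in DIO and between -3.22 and -2.60 (median -2.90) in Lean papillae (probe at chr10:84594731-84594790, mm9). All 8 DIO samples and 7 of the 8 DIO-R samples were below the Lean mean, with ranges that overlapped. It was the one clock repressor with a lower mean in DIO-R than in Lean, at -0.30 ± 0.12 (adjusted p = 0.439), and the difference in DIO against Lean was -0.42 ± 0.12 (unadjusted p = 0.00155, adjusted p = 0.226 by limma). Neither passed the threshold.

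Cry2 encodes the paralogue of Cry1, whose loss lengthens the mouse period while loss of Cry1 shortens it. It lay between 2.26 and 2.82 (median 2.47) in DIO-R, between 1.99 and 2.36 (median 2.12) in DIO and between 1.90 and 2.22 (median 2.04) in Lean papillae (probe at chr2:92243807-92243866, mm9). Every DIO-R sample was above every Lean sample, and 6 of 8 were above every DIO sample. The difference was small and tight: 0.43 ± 0.08 against Lean (adjusted p = 0.0338) and 0.35 ± 0.08 against DIO (adjusted p = 0.167) by limma. The within-group SD of Cry2, 0.15, was lower than that of all but 19.3% of the genes kept. The dimmer Cry2 probe, at chr2:92251417-92251476 and designed to another transcript record, gave 0.47 ± 0.15 and 0.33 ± 0.15. Neither passed (limma adjusted p 0.364 and 0.543 over probes). In that fit over probes the leading Cry2 probe had a limma adjusted p of 0.0488 against Lean. The call against Lean was lost with the mean of both probes (adjusted p = 0.111) and without any 1 of DIO-R 2, 5, 6, 8 or 10 or Lean 5, 6, 7 or 10, where the difference stayed between 0.38 and 0.47 over all single omissions and the adjusted p reached at most 0.109.

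Bhlhe40 encodes DEC1, a repressor that is also induced by hypoxia, feeding and glucocorticoids in several tissues. Its level lay between 0.77 and 1.5 (median 1.09) in DIO-R, between -0.26 and 0.82 (median 0.41) in DIO and between 0.09 and 0.63 (median 0.32) in Lean papillae (probe at chr6:108616309-108616368, mm9). All 8 DIO-R samples were above every Lean sample, and 6 were above every DIO sample, of which DIO 2 was highest. It was 1.69-fold higher than in DIO, 0.76 ± 0.14 (adjusted p = 0.0389), and 1.66-fold higher than in Lean, 0.73 ± 0.15 (adjusted p = 0.0418, both limma). In the fit over probes the same probe missed the threshold, with limma adjusted p values of 0.051 against DIO and 0.0538 against Lean. Bhlhe40 was the 1 clock repressor of 8 that passed in DIO-R against DIO, where 0.0213% of all genes were called higher and 0.0602% in either direction. That call was lost, with the difference at 0.58 and an adjusted p of 0.131, without DIO 1 and DIO 6. It was also lost without any 1 of DIO 1, 3, 5, 6, 7 or 8, DIO-R 4, 5, 6, 8 or 10, or Lean 4, 6 or 10, with differences of 0.67 to 0.82 over all single omissions. The call against Lean was lost without any 1 of DIO 3, 5, 7 or 8, DIO-R 4, 5, 6, 7, 8 or 10, or Lean 4, 5, 6, 7 or 10, with differences of 0.67 to 0.78 and an adjusted p of at most 0.126.

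Bhlhe41 encodes DEC2, the paralogue of Bhlhe40. Its level lay between -3.87 and -2.54 (median -3.15) in DIO-R, between -3.85 and -2.78 (median -3.14) in DIO and between -3.88 and -2.47 (median -3.19) in Lean papillae (probe at chr6:145811275-145811334, mm9). The ranges nearly coincided, and the difference was 0.14 ± 0.21 against DIO (adjusted p = 0.821) and 0.10 ± 0.22 against Lean (adjusted p = 0.911) by limma, with 95% intervals of -0.30 to 0.57 and -0.35 to 0.55. The second Bhlhe41 probe, at chr6:145812652-145812711 and well above background on 20 of 23 arrays, went differently, at 0.97 ± 0.24 against DIO (adjusted p = 0.256 over probes) and 0.88 ± 0.25 against Lean (adjusted p = 0.261). The disagreement between the probes leaves the Bhlhe41 value uncertain, and neither probe passed.

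Ciart encodes CHRONO. Its level lay between -3.71 and -1.93 (median -2.80) in DIO-R, between -6.40 and -3.82 (median -4.06) in DIO and between -5.88 and -4.35 (median -5.24) in Lean papillae (probe at chr3:95682433-95682492, mm9). Every DIO-R sample was above every DIO and every Lean sample, and 1 of the 8 clock repressors was apart in this way from DIO, where 0.0496% of all genes were wholly higher and 0.0886% apart in either direction. Against Lean the level was 5.19-fold higher, 2.38 ± 0.35 (adjusted p = 0.00236), and against DIO 2.97-fold higher, 1.57 ± 0.34 (adjusted p = 0.0971 by limma), which missed the threshold. The limma adjusted p against Lean was 0.00348 after the normexp correction and 0.000221 in the authors' deposited values. Against DIO these settings gave 0.63 (adjusted p = 0.0301) and 0.86 (adjusted p = 0.0165), both past the threshold. Per2 was also reduced by normexp, to 0.87 against Lean (adjusted p = 0.00683).

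**Figure D2:**
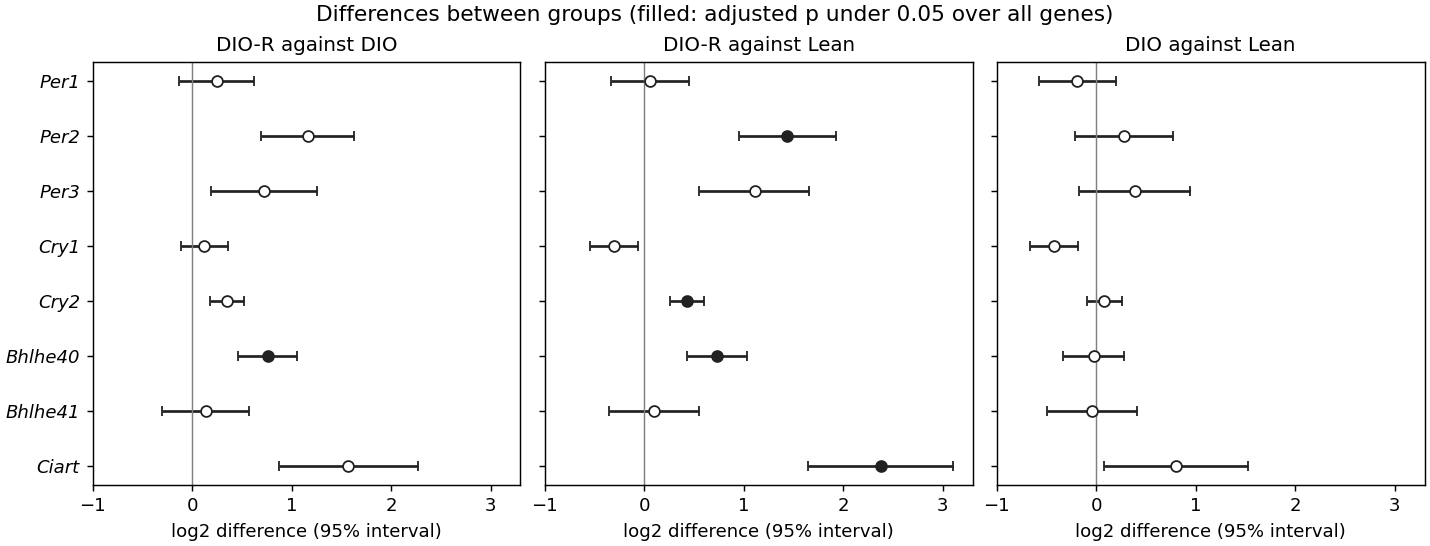
Log2 difference of each clock repressor with its 95% interval from limma, in DIO-R against DIO, DIO-R against Lean and DIO against Lean; filled points have an adjusted p under 0.05 over all genes. Filled points are Bhlhe40 in the first panel and Per2, Cry2, Bhlhe40 and Ciart in the second, and none in the third.

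In DIO-R against DIO all 8 differences were above 0, with a median of 0.53 beside 0.01 over all genes, of which 51.6% were above 0. Without DIO 1 and DIO 6 all 8 stayed above 0, between 0.12 and 1.33, and none passed in limma, with Per2 at 0.99 (adjusted p = 0.258) and Ciart at 1.33 (adjusted p = 0.131). An unadjusted p under 0.05 was reached by 5 of the 8, where 9.72% of all genes reached it, and by 6 of the 8 in DIO-R against Lean, where 8.94% did. In DIO against Lean none of the 8 passed in limma, where 0.00354% of all genes did, and no ranges were apart (0.12% of all genes). Unadjusted, 2 of the 8 reached 0.05, Cry1 lower and Ciart higher at 0.80 ± 0.35 (adjusted p = 0.499), where 8.95% of all genes did. The difference was above 0 for 4 of the 8 and for 41.1% of all genes. Per1, Per2, Per3, Cry2, Bhlhe40 and Bhlhe41 differed by -0.19, 0.28, 0.39, 0.08, -0.02 and -0.04 in that comparison, which shares its DIO samples with one of the other comparisons and its Lean samples with the other. Without DIO 1 and DIO 6, Cry1 was -0.41 and Ciart 1.04 in DIO against Lean (limma adjusted p 0.19 and 0.121).

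Each clock repressor that passed against Lean was also higher within each of the 3 slides, which are also the scan batches. Each slide holds all groups, with 2 or 3 arrays of each. For Cry2, Bhlhe40 and Ciart that direction was fixed by group ranges that did not overlap, so it adds no support. For Per2 only DIO-R 3, on slide 1, overlapped the Lean samples. The direction of Per2 in slides 2 and 3 was thus fixed in the same way and adds no support either. For slides 1, 2 and 3 the DIO-R minus Lean difference was 1.22, 1.73 and 1.27 for Per2 and 0.46, 0.57 and 0.33 for Cry2. It was 0.80, 0.81 and 0.59 for Bhlhe40 and 2.47, 2.49 and 2.12 for Ciart. The DIO-R minus DIO difference of Bhlhe40 was 0.96, 0.93 and 0.29 in those slides. With the slide as a block, Bhlhe40 missed the threshold against DIO (0.75, adjusted p = 0.0755) and against Lean (0.72, adjusted p = 0.0951), and the calls for Per2, Cry2 and Ciart against Lean were kept.

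Paralogues moved unequally in 6 of 15 tests. Within an array, the log2 difference between the Per1 and Per2 probes averaged 4.93 ± 0.36 in DIO-R, 5.84 ± 0.57 in DIO and 6.31 ± 0.41 in Lean papillae (SD), where only the change between groups has a meaning and not the offset between probes. The change was -0.91 in DIO-R against DIO and -1.38 in DIO-R against Lean, with two-sided exact permutation p values, adjusted over the 15 tests of 5 pairs in 3 comparisons, of 0.00816 and 0.00466. Both passed in each of 6 other settings, with changes of -1.19 to -0.48 against DIO and -1.51 to -0.82 against Lean, smallest in size with normexp. Without DIO 1 and DIO 6 the change was -0.66 against DIO (exact permutation, adjusted p = 0.0219), and Per1 minus Per2 then also passed in DIO against Lean, at -0.72 (adjusted p = 0.00437). Among single omissions, 3 further pairs passed: Per1 minus Per2 in DIO against Lean without DIO 6 (changes of -0.60 to -0.33), Per2 minus Per3 in DIO-R against DIO without DIO 2 (0.25 to 0.57), and Bhlhe40 minus Bhlhe41 in DIO-R against DIO without DIO 2, DIO 5 or DIO 7 (0.46 to 0.71).

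The Per1 minus Per3 difference averaged 5.62 ± 0.42 in DIO-R and 6.67 ± 0.48 in Lean, a change of -1.05 (exact permutation, adjusted p = 0.00466) that passed in the same 6 settings at -1.18 to -0.48, smallest in size with normexp. Cry1 minus Cry2 averaged -5.70 ± 0.32 in DIO-R and -4.97 ± 0.25 in Lean, a change of -0.73 (exact permutation, adjusted p = 0.00466), and -5.48 ± 0.29 in DIO, a change of -0.51 from Lean (exact permutation, adjusted p = 0.0107). Both changes of Cry1 minus Cry2 passed in the same settings, at -0.75 to -0.58 in DIO-R against Lean and -0.53 to -0.31 in DIO against Lean, again smallest in size with normexp. Bhlhe40 minus Bhlhe41 averaged 4.23 ± 0.39 in DIO-R and 3.59 ± 0.47 in Lean, a change of 0.63 (exact permutation, adjusted p = 0.035) that was 0.25 (adjusted p = 0.324) with the mean of each gene's probes. That call was also lost, with changes of 0.50 to 0.74 over all single omissions, without any 1 of DIO-R 3, 4, 5, 6 or 7 or Lean 3, 4, 6 or 10. Per2 minus Per3 changed by 0.33 in DIO-R against Lean and by 0.44 against DIO, past no threshold (exact permutation, adjusted p = 0.237 and 0.177). In DIO-R against DIO, Per1 minus Per3 changed by -0.48, Cry1 minus Cry2 by -0.22 and Bhlhe40 minus Bhlhe41 by 0.62. None of these passed (exact permutation, adjusted p = 0.209, 0.209 and 0.0689). In the 6 other settings Bhlhe40 minus Bhlhe41 passed there in 4, Cry1 minus Cry2 in 1 and Per1 minus Per3 in 0.

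**Figure D3:**
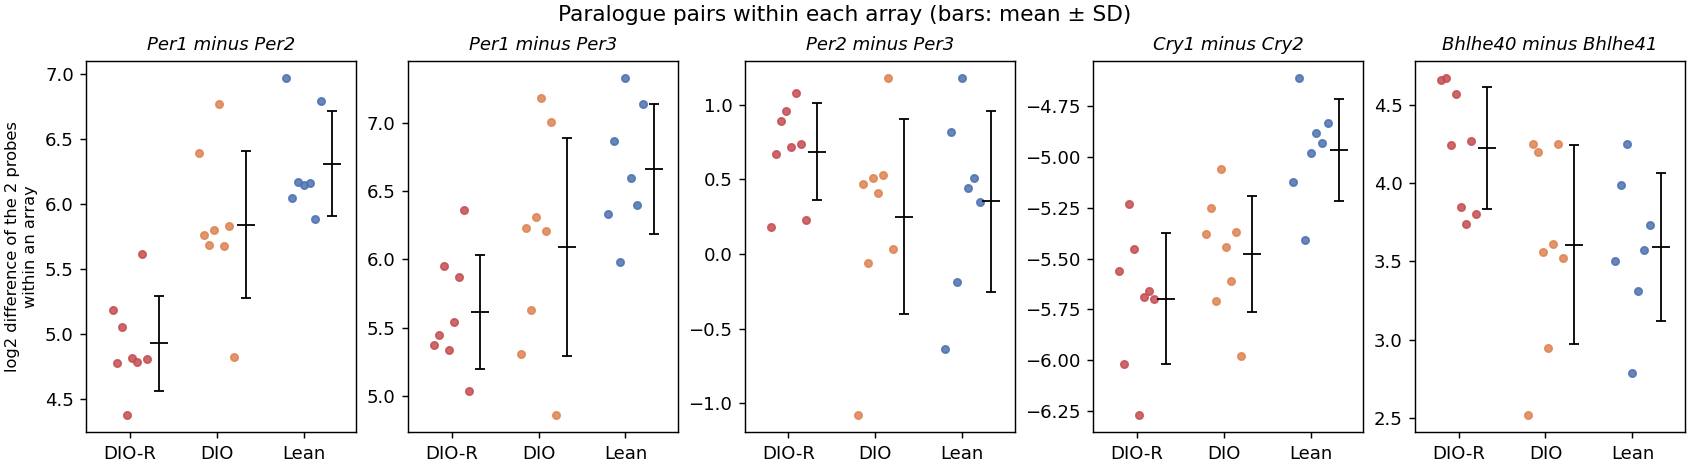
Within-array log2 difference of 5 pairs of paralogue probes in every sample, with DIO-R, DIO and Lean from left to right and bars for mean ± SD. The DIO-R points of Per1 minus Per2 lie below all but 1 of the DIO points and below all Lean points, and those of Cry1 minus Cry2 lie mostly below the Lean points.

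The other genes of the loop were set beside the repressors by lists drawn up with earlier results of these data known. Of 9 activators and Bmal1-loop genes, Nr1d1 and Nr1d2, which encode the REV-ERB repressors of Arntl, were higher in DIO-R than in Lean by 1.20 ± 0.17 and 1.19 ± 0.15, and Arntl, which encodes BMAL1, was lower, at -0.99 ± 0.17 (limma adjusted p 0.00165, 0.000243 and 0.00769). The list's median difference was -0.15, and none of its genes passed in DIO-R against DIO or in DIO against Lean. Of the 4 genes that encode the D-box factors and their competitor NFIL3, Dbp and Tef were higher in DIO-R than in Lean, by 3.49 ± 0.26 and 1.11 ± 0.14, and Nfil3 was lower, at -1.21 ± 0.19, with limma adjusted p values of 1.74e-07, 0.000243 and 0.00515. Dbp and Tef also passed in DIO-R against DIO, at 1.98 ± 0.25 and 0.77 ± 0.13 (limma adjusted p 0.000712 and 0.0185). Without DIO 1 and DIO 6, Dbp kept its call at 1.82 ± 0.26 (adjusted p = 0.00424) and Tef did not, at 0.69 ± 0.14 (adjusted p = 0.126), and Dbp then also passed in DIO against Lean, at 1.67 ± 0.27 (adjusted p = 0.0215).

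None of 15 genes for enzymes that modify or degrade PER and CRY, among them Csnk1d and Csnk1e, passed in any comparison by limma. In DIO-R against Lean 9 of them were higher and the median was 0.02, and the smallest p belonged to Csnk2a2, at -0.09 ± 0.06. In DIO-R against DIO 13 of the 15 were higher (median 0.10), and in DIO against Lean 13 were lower (median -0.08). Of all genes, 44.5% were above 0 in DIO-R against Lean, 51.6% in DIO-R against DIO and 41.1% in DIO against Lean. None of 16 genes for partners of the PER and CRY complex passed either, among them Timeless, at 0.60 ± 0.14 in DIO-R against Lean and 0.57 ± 0.14 in DIO against Lean (limma adjusted p 0.105 and 0.168). Of the 16, 15 were higher in DIO-R against Lean and 15 in DIO-R against DIO (median 0.08 in each). In DIO against Lean 8 of them were higher (median 0). Of 7 clock-controlled E-box genes, 4 rose in DIO-R against Lean, all already named above, and Wee1, Nampt and Usp2 did not pass. Among 12 glucocorticoid-response genes, Per1 included, none passed in any comparison by limma, and 9 of 12 were lower in DIO-R than in Lean with a median of -0.11. In DIO against Lean 11 of the 12 were lower (median -0.26), and in DIO-R against DIO 4 were lower (median 0.08). Of 12 hypoxia-response genes the one that passed was Bhlhe40 itself, and their median was 0.02 in DIO-R against Lean. That median was 0.12 in DIO-R against DIO (7 of 12 higher) and -0.12 in DIO against Lean (3 of 12 higher).

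Markers of other cells moved beside these results, and their part in them was not tested beyond the fits given here. The summed level of 10 skeletal muscle genes, as multiples of the 75th percentile, lay between 202 and 1160 (median 676) in DIO-R, between 585 and 1460 (median 1050) in DIO and between 413 and 1710 (median 1140) in Lean, and none passed. All 10 were lower in DIO-R than in DIO, with a median of -0.62. Against Lean 9 of the 10 were lower, with a median of -0.64. The 8 adipocyte genes summed to between 3.31 and 17.9 (median 11.3) in DIO-R, 12.6 and 28.9 (median 17.6) in DIO and 7.78 and 37.7 (median 18.0) in Lean, and none passed. All 8 were lower in DIO-R than in DIO and than in Lean, with medians of -1.29 and -1.11. Type II taste cell genes were higher in DIO-R for 9 of 10 against DIO (median 0.27) and for 5 of 10 against Lean (median 0). In DIO against Lean all 10 were lower (median -0.27), and none passed in any comparison. Of 8 red cell genes kept, all 8 were lower in DIO-R than in DIO with a median of -1.05 and none past the threshold. Their sum lay between 94.7 and 317 (median 174) in DIO-R, 160 and 578 (median 311) in DIO and 60.7 and 263 (median 158) in Lean. All 6 basal and all 10 differentiated keratinocyte genes were higher in DIO-R than in DIO, with medians of 0.19 and 0.33, all 8 fibroblast genes were lower, with a median of -0.21, and none passed. In DIO-R against Lean, 6 of 6 basal keratinocyte, 3 of 10 differentiated keratinocyte and 5 of 8 fibroblast genes were higher, with medians of 0.15, -0.13 and 0.16, and none passed. The basal keratinocyte sum lay between 388 and 531 (median 438) in DIO-R, 253 and 517 (median 388) in DIO and 336 and 475 (median 387) in Lean. The differentiated keratinocyte sum lay between 1000 and 1710 (median 1370) in DIO-R, 635 and 1760 (median 1090) in DIO and 966 and 1870 (median 1370) in Lean. The fibroblast sum lay between 237 and 446 (median 324) in DIO-R, 218 and 492 (median 400) in DIO and 203 and 422 (median 333) in Lean. Once muscle, adipocyte and gland scores entered the fit, Per2 and Ciart kept their calls against Lean at 1.35 and 2.21 (limma adjusted p 0.0389 each), while Cry2 and Bhlhe40 did not, at 0.41 and 0.58 (0.232 and 0.25). With keratinocyte and fibroblast scores, Cry2 was 0.39 (adjusted p = 0.168) and Bhlhe40 0.58 (adjusted p = 0.119), and against DIO Bhlhe40 was 0.62 (0.0651). With the red cell score, Bhlhe40 was 0.73 against DIO (adjusted p = 0.889) and 0.73 against Lean (0.0528). The same 0.889 was the highest limma adjusted p over the settings for Per2, Cry2 and Ciart against DIO, so it is not particular to Bhlhe40.

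The genes whose levels ran most like each repressor over the 23 arrays were compared by Pearson's r, given as a description over 28210 other genes, since the arrays share their groups and slides. For Per2 they were Tef and Hlf (r = 0.91 each), Srebf1 and Bhlhe40 (0.87 each) and Ciart (0.86). Cry2 was nearest to Tef (0.91), then Nr1d2, Dbp and Ciart (0.86 each) and Hlf (0.82). The nearest genes to Ciart were Tef, Per2 and Cry2 (0.86 each), Dbp (0.85) and Nr1d2 (0.84). Bhlhe40 was nearest to Hlf (0.91), then Scd2, Rnf145 and Srebf1 (0.90 each) and Naaladl2 (0.89). Against Arntl the r was -0.87 for Per2, -0.84 for Cry2, -0.81 for Bhlhe40 and -0.83 for Ciart. It was also -0.84 for Per3, which did not pass in any comparison. The lists of nearest genes over all arrays depend on the processing. Most of a repressor's 5 nearest genes were kept in 25 checks under other settings and lost in 15.

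Per3 was nearest to Camkv (0.81) and Tef (0.80). Per1, Cry1 and Bhlhe41 ran differently. The nearest genes to Per1 were Ddit4 (0.76) and Wee1 (0.73), and its r with Per2 was 0.37. Cry1 was nearest to Tmem59 (0.69), with an r of -0.65 against Nr1d1, and Bhlhe41 was nearest mainly to probes without a gene symbol and to Guca1b (0.84). After each value was centred on its group mean, which leaves the spread within groups, Per1 was nearest to Wee1 (0.80), Tsc22d3 and Ddit4 (0.73 each), and Cry2 to Tef (0.75) and Nr1d2 (0.74). No clock gene was among the 5 nearest to Per2, Per3, Cry1, Bhlhe40 or Ciart after that centring, and the centred r of Per2 was 0.78 with Hlf, 0.70 with Tef and 0.67 with Bhlhe40.

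**Figure D4:**
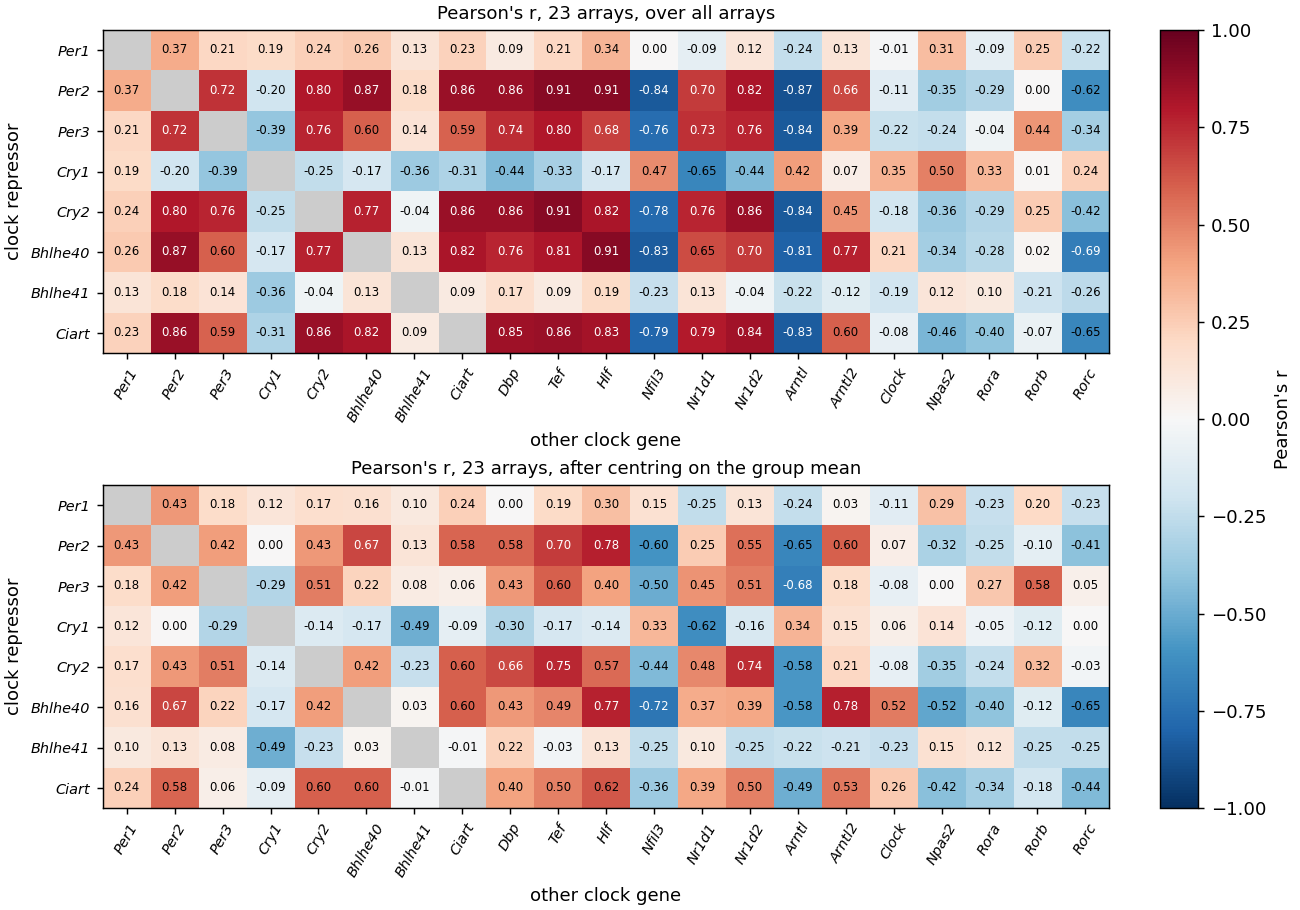
Pearson's r between each clock repressor (rows) and other clock genes (columns) over 23 arrays, above over all arrays and below after centring each value on its group mean; grey cells are a gene with itself. Per2, Per3, Cry2, Bhlhe40 and Ciart share high values with Dbp, Tef and Hlf and low values with Arntl and Nfil3 in the upper panel, and Per1, Cry1 and Bhlhe41 do not.

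Leaving out any 1 array kept the calls for Per2 and Ciart against Lean in 23 of 23 fits, the call for Cry2 in 14 and that for Bhlhe40 in 8. The spread within groups differed between the repressors, with a pooled SD of 0.70 for Ciart, above that of 86.1% of the genes kept, 0.53 for Per3, 0.47 for Per2, 0.43 for Bhlhe41, 0.37 for Per1, 0.29 for Bhlhe40, 0.23 for Cry1 and 0.15 for Cry2. The median over the genes kept was 0.30.

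**Figure D5:**
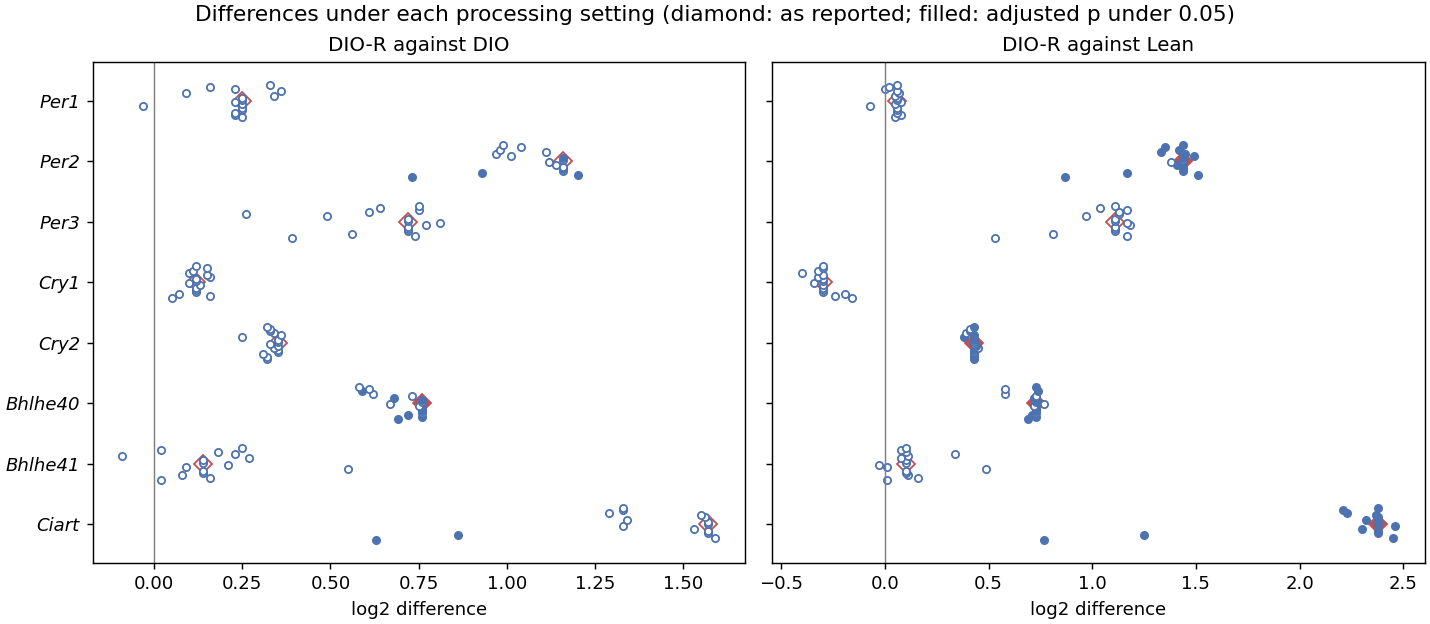
Log2 difference of each clock repressor in DIO-R against DIO (left) and DIO-R against Lean (right) under each processing setting except single omissions; the diamond is the reported value and filled points have an adjusted p under 0.05. Ciart against Lean is filled in every setting, and it lies at 0.77 and 1.25 in the 2 settings farthest from the reported 2.38.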

How the data were processed

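Messenger RNA of 23 circumvallate papilla samples was read on 1-colour Agilent mouse arrays. The scanner intensity of each spot comes, per the file headers, from version 10.10.1.1 of Agilent's Feature Extraction, which took background and a spatial trend off each array, with no scaling across arrays. Probe positions are on mm9, per the file headers, and exon boundaries of that build were not used here. The authors' deposited value table holds log2 values whose normalization is not given in the sources used here beyond the name of limma, per the submitters' processing notes, and served as an alternative. Its columns follow the scanner's median spot signal.

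The intensity was turned to log2 and the 75th percentile of the array was subtracted. Control spots and spots flagged as outliers were left out, and spots of a probe were averaged. A gene is its probe with the highest mean, kept if well above background on at least 7 of 23 arrays, and 28211 of the 28224 genes had a value on every array. Group means were fitted over all 23 arrays with limma 3.58.1 in R 4.3.3, two-sided, with Benjamini-Hochberg adjustment over all genes and a threshold of 0.05. Other probes were fitted over 41731 probes. Paralogue pairs were compared by exact permutation. Figures used Python 3.11.15. The fits were tested on simulated data.

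The members and lists were chosen with earlier results of these data known. Named besides the 8 members are the list genes past the threshold, genes drawn from those with the 2 smallest p values of a list in a comparison, and the 5 genes nearest to each member. Precision is limited by the number of arrays, 7 or 8 per group. Replicate numbers recur across groups but the labels do not say what they share. The 18 same-numbered pairs correlated between -0.37 and 0.33 in their deviations from the group means, with 4 over 0.1, so they were not treated as pairs. Alternatives covered background correction, normalization, the filter on dim probes, probe choice, slide and replicate blocks, the groups in the fit, the variance model, array weights, marker scores and single omissions. Leaving out DIO 1 and DIO 6 was chosen after seeing the data.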

Additional observations from a re-analysis of the deposited data

Results flagged for a closer look

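Ciart in DIO 1 lay at -6.4, far below the next DIO sample at -4.63, a gap of 0.685 of the range of the 8 samples. DIO 1 was also the 1 of the 8 DIO arrays on which the probe was not well above background. The low value was the 1 result of its kind among 33 sets of a probe and a group that were examined, where chance alone gives about 1 in 20.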

How the results depend on the processing

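Ciart in DIO-R against Lean passed in each of its 15 alternatives other than single omissions, with differences of 0.77 to 2.46, and Per2 in 14 of 16, with 0.87 to 1.51. Cry2 and Bhlhe40 passed in 10 of 16 each. The number of clock repressors past the threshold in DIO-R against Lean, 4 as reported, was 2 with no filter on dim probes, with only the 2 groups compared, with keratinocyte and fibroblast scores and with muscle, adipocyte and gland scores, and 2 to 4 over single omissions. In DIO-R against DIO, 1 as reported, it was 3 with normexp and with the authors' deposited values, 2 with quantile normalization, the filter on all arrays and the trended robust model, 0 with no filter, the slide block, only the 2 groups compared, each of the red cell, keratinocyte and fibroblast, and muscle, adipocyte and gland scores, and without DIO 1 and DIO 6, and 0 to 2 over single omissions. In DIO against Lean it was 0 in all of these. With the replicate block the counts were 0 in DIO-R against DIO and 1 in DIO-R against Lean, where Ciart kept its call at 2.46 (limma adjusted p = 0.00171) while Per2 was 1.38 (0.227), Cry2 0.43 (0.375) and Bhlhe40 0.77 (0.278). The paralogue count, 6 as reported, was 10 with normexp and 5 to 8 over single omissions. The share of all genes called in each setting is not given here. A change in the count of clock repressors is thus not read as particular to them. The causes were not tested.

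Reversed directions were found for differences that passed in no setting. Bhlhe40 in DIO against Lean, -0.02 as reported, was 0 with normexp, 0.10 with the replicate block, 0.04 with array weights, 0.01 with the red cell score, 0.15 with taste cell scores, 0.15 without DIO 1 and DIO 6, and -0.09 to 0.06 over single omissions. Bhlhe41 in DIO against Lean, -0.04 as reported, was 0.03 in the authors' values, 0.20 with the red cell score, 0.11 with keratinocyte and fibroblast scores, 0.06 with muscle, adipocyte and gland scores, and -0.15 to 0.09 over single omissions. Bhlhe41 was -0.09 in DIO-R against DIO with the red cell score, and in DIO-R against Lean -0.03 with the replicate block and -0.01 to 0.22 over single omissions. Per1 with the mean of its probes was -0.03 in DIO-R against DIO and -0.07 in DIO-R against Lean, where single omissions gave 0 to 0.17. In DIO against Lean, Bhlhe40 minus Bhlhe41 was -0.02 with quantile normalization, -0.03 in the authors' values and -0.12 to 0.17 over single omissions, and Per2 minus Per3 was 0.09 without DIO 1 and DIO 6 and -0.27 to 0.08 over single omissions. Dim probes such as Ciart carry little signal over background, which limits their folds.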
